A study of Homo sapiens with 8 samples.

Results

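The Krüppel-like factor (KLF) genes examined here are the 10 family members KLF2, KLF3, KLF4, KLF5, KLF6, KLF7, KLF9, KLF10, KLF11 and KLF13, taken by their gene symbol from a deposited table of 30434 genes. Each symbol matched 1 gene, and all 10 members passed the filter on low counts that left 16430 genes for testing. RNA was sequenced from SKBR3, a human breast cancer cell line with an amplified ERBB2 (HER2) gene. The 4 control libraries came from SKBR3 cells labelled WT. The 4 knockdown libraries came from SKBR3 cells that stably carried lentiviral short hairpin RNAs against FOXA1, a pioneer transcription factor of luminal epithelium; 3 hairpin sequences were used, per the series' design text. All cells were grown in DMEM with fetal bovine serum. The labels do not say whether the control cells carried a control hairpin, whether the stable line was 1 clone, or whether replicates were separate cultures, so p-values measure the spread between these libraries, which may be technical.

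KLF proteins bind GC-rich and CACCC-type promoter elements through C-terminal zinc fingers that are closely alike across the family, so members can occupy the same sites with different effects. They are commonly sorted by the partners of their N-terminal parts. KLF2, KLF4, KLF5, KLF6 and KLF7 belong to a branch that mostly activates transcription, KLF3 to a branch that represses through the corepressor CtBP, and KLF9, KLF10, KLF11 and KLF13 to a branch that binds the corepressor SIN3A. In epithelia, KLF4 is known for terminal differentiation and KLF5 for proliferating and basal cells.

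Because several members moved between the groups, the sequence before the transcription start is shown, with the elements that KLF and SP proteins bind. It is given for KLF2, KLF7, KLF9 and KLF5, the members with the largest changes, and for KLF11. KLF6 and KLF4, which changed more than KLF11, are not printed. RefSeq windows (GRCh38.p14) were found for 8 of the 10 members, 13 windows in all because KLF5, KLF7 and KLF11 have several starts; the others are KLF3 and KLF10. In each window the longest run free of annotated exons was taken. This cut the KLF7 stretch at its 5′ end and the KLF2 and KLF11 stretches at their 3′ end. All stretches below are printed 5′ to 3′ on the strand of the gene. They are chr19:16324576-16324816 (plus strand) for KLF2, chr2:207166857-207166993 (minus strand) for the KLF7 start richest in GC boxes, chr9:70414658-70414907 (minus strand) for KLF9, chr13:73054726-73054975 (plus strand) for the upstream start of KLF5, and chr2:10043971-10044174 (plus strand) for the downstream start of KLF11. Capitals mark matches to the GC box (GGGCGG), the CACCC box (CACCC), the MEF2 box (CTA and TAG set 4 bases apart), TATAAA and CCAAT, each on either strand, with overlapping matches run together.
KLF2: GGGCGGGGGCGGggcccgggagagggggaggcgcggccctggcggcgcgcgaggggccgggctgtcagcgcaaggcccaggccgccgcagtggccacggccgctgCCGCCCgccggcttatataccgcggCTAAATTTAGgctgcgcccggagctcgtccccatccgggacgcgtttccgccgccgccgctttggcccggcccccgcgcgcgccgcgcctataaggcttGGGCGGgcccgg
KLF7: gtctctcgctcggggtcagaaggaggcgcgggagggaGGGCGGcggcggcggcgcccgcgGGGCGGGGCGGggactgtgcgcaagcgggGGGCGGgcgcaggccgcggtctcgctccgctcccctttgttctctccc
KLF9: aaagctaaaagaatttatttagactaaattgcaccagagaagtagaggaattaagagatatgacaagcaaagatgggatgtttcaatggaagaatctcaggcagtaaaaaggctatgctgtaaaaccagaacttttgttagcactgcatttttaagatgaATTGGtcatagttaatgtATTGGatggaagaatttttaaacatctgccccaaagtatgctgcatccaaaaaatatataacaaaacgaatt
KLF5: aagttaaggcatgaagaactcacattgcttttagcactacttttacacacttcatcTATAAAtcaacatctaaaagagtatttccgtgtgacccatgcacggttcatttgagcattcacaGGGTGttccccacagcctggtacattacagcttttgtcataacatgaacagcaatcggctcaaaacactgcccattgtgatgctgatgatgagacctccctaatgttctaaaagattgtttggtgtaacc
KLF11: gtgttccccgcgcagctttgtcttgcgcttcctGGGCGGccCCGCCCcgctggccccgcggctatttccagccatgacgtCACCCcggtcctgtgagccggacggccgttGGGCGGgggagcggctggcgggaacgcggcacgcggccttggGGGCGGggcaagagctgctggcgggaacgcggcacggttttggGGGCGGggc

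Read over the full 250 bases before each start, the KLF2 window held 4 GC boxes and 41 CpG dinucleotides, where the median of 35116 RefSeq windows was 11. It also held 1 MEF2 box, a match present in 2.36% of all windows. The KLF9 window held 0 GC boxes, 0 CACCC boxes and 1 CpG. Both genes were lower in the knockdown libraries, from promoters of unlike composition. The KLF5 upstream window, with 3 CpG, held 0 GC boxes, 1 CACCC box and 1 TATAAA match. KLF5 also has a downstream start, whose window held 27 CpG, 2 GC boxes, 2 CACCC boxes and 2 CCAAT matches. That window is not printed, because its longest stretch free of annotated exons was only 37 bases. The KLF7 window chosen for printing held 4 GC boxes and 29 CpG, but the windows of its other starts held 0 GC boxes and 5, 13 and 6 CpG. Which start the cells used was not tested. The downstream KLF11 window held 6 GC boxes and 1 MEF2 box. Of these, 5 GC boxes lie in the printed stretch and the MEF2 box does not. Over the 13 windows, GC boxes were present in 8 (42.6% of all windows) and CACCC boxes in 6 (54.7%). The forkhead letters TGTTTAC and TATTTAC, the core that FOXA proteins recognise, were searched on both strands and found in 0 of the 13 windows, against 2.98% and 2.39% of all windows. This says only that these letters are not in these windows.

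Library totals ran from 19087878 to 23786684 counts, and 3 counts corresponded to between 0.123 and 0.153 CPM (counts per 1000000, scaled by trimmed-mean normalisation). FOXA1 itself lay between 189 and 193 CPM in control and between 3.56 and 4.25 CPM in knockdown, or 2.06% of the control level. The SKBR3 markers ERBB2, KRT7, KRT8, KRT18, KRT19 and EPCAM were present in every library, and 3 were called lower and 3 higher in knockdown. ERBB2 averaged 7298 CPM in control and 1338 CPM in knockdown, and KRT7 and KRT19 also fell, to 0.289 and 0.273 of control. KRT8 rose from 4513 to 5612 CPM, KRT18 from 2309 to 3452 CPM and EPCAM from 179 to 226 CPM. Markers of other cell types were mixed too. Of the immune list, PTPRC had at most 3 counts in any library; the summed list lay between 4.98 and 6.33 CPM in control, mostly from CD68, and between 0.785 and 1.78 CPM in knockdown. Of the fibroblast list, DCN had at most 1 count and COL1A2 at most 3, COL1A1 had between 79 and 134, PDGFRB went from 7 to 12 counts in control to 43 to 81 in knockdown, and COL3A1 from at most 1 count to between 90 and 104, at least 30.3-fold higher against a floor of 3 counts per library. Summed, that list lay between 5.26 and 6.97 CPM in control and between 10.8 and 11.9 CPM in knockdown. The endothelial list summed to between 20.7 and 22.2 CPM in control and between 19.8 and 22.4 CPM in knockdown, but its members moved in opposite directions: CDH5 rose from 16.1 to 20 CPM and VWF fell from 5.21 to 0.844 CPM, while PECAM1 had at most 6 counts, KDR at most 7 and TEK at most 4. The part of these lists in the results was not tested. In RNA from whole cultures, fewer cells that express a gene and less RNA per cell cannot be told apart. Control replicate 3 deviated most from its group mean over the tested genes (SD of log2 values 0.322, where controls 1, 2 and 4 had 0.304 to 0.309).

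The comparison asked how the members differed between FOXA1 knockdown and control cells. KLF2, KLF4, KLF6, KLF7 and KLF9 fell, and KLF5, KLF10 and KLF11 rose. KLF4 fell by 32.4% and KLF2 fell by 93.5%, the ends of the range, and the rises ran from 1.25-fold (KLF10) to 2.79-fold (KLF5). KLF3 and KLF13 did not pass the threshold. Calls come from edgeR's quasi-likelihood test, with Benjamini-Hochberg adjusted p-values under 0.05 across the 16430 genes. They took in 8 of the 10 members, where they took in 77.1% of all genes tested (39.4% higher and 37.7% lower), so the share of members called was near the background. A change of at least 2-fold was called in 4 members, 3 lower and 1 higher, against 28.3% of all genes. Control and knockdown libraries stood fully apart in CPM for 8 members, against 72.0% of all genes. For each of these 8 the two-sided exact permutation p was 0.0286, which is the smallest possible with 4 against 4. The median log2 fold change of the 10 members was -0.34, beside 0.019 for all genes tested.

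**Figure D1:**
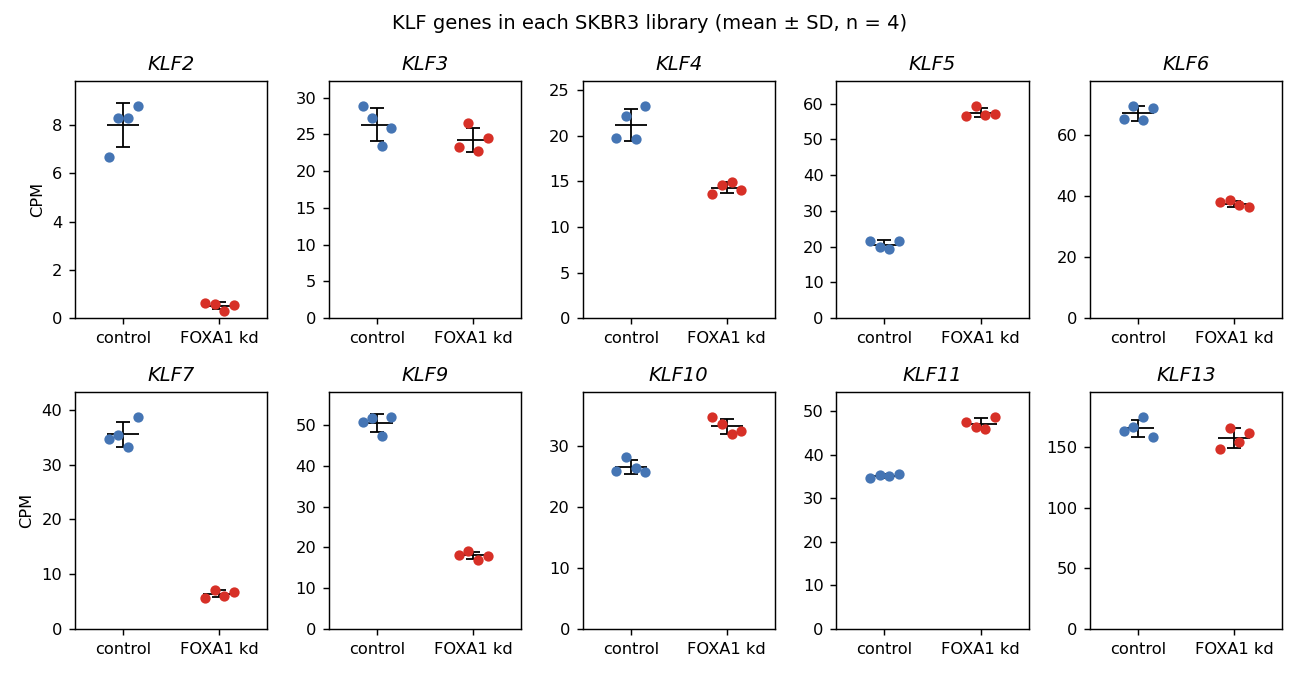
CPM of each of the 10 KLF genes (vertical axes, each starting at 0) in the 4 control (blue) and 4 FOXA1 knockdown (red) libraries, with the mean and SD. The groups stand apart in 8 panels and overlap for KLF3 and KLF13; KLF2 sits between 0.305 and 0.637 CPM in knockdown.

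Among the activating members, KLF2 fell furthest. KLF2 (ENSG00000127528.6, chromosome 19, 16324817 to 16327874), known as a factor of quiescent endothelium and T cells, was counted 146, 183, 175 and 204 times in the controls, in replicate order, and 15, 14, 6 and 12 times in the knockdown libraries. Every knockdown library was more than 10-fold below every control library and still above the 3-count floor. Mean levels were 8.01 ± 0.919 and 0.517 ± 0.146 CPM (SD, n = 4 each). On the log2 scale the difference was -3.92 with an SE of 0.24 (edgeR adjusted p 6.97e-17). Few counts stood behind the knockdown value, whose coefficient of variation was 28.2% against 11.5% in control. Its promoter, printed above, is the most CpG-rich of those shown, and 50 of its 50 nearest tested genes had a higher log2 fold change than KLF2.

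KLF7 (ENSG00000118263.15, chromosome 2, 207074137 to 207167267), best known for its part in the development of neurons, lay at 34.7, 35.5, 33.3 and 38.7 CPM in control and at 5.69, 7.12, 6.1 and 6.75 CPM in knockdown. The knockdown libraries kept 18% of the control level, with no overlap between the groups. This was a difference of -2.47 on the log2 scale, with an SE of 0.0853 (edgeR adjusted p 2.11e-20). A small part of KLF7 sequence, 0.919% of its stretches of 31 bases, occurs in transcripts of another gene, chiefly the pseudogene KLF7P1.

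KLF6 and KLF4 fell less. KLF6 (ENSG00000067082.15, chromosome 10, 3775996 to 3785281), a widely expressed activator studied as a tumour suppressor, had 65.3, 69.5, 64.9 and 69.1 CPM in control and 38.1, 38.7, 37.0 and 36.6 CPM in knockdown, so that knockdown kept 56.0% (-0.84 on the log2 scale, SE 0.0321, edgeR adjusted p 6.2e-15). KLF4 (ENSG00000136826.15, chromosome 9, 107484852 to 107490482) had 19.7, 22.1, 19.6 and 23.2 CPM in control and 13.6, 14.6, 14.9 and 14.1 CPM in knockdown, or 67.6% of control (-0.57 on the log2 scale, SE 0.0667, edgeR adjusted p 3.31e-08). For both, the lowest control library lay above the highest knockdown library. The chromosomal surroundings of the 2 genes moved in opposite directions. The 50 nearest tested genes had a median log2 fold change of 0.58 around KLF6 and of -0.37 around KLF4. An offset equal to that median gave -1.41 for KLF6 and -0.2 for KLF4, the latter with an edgeR adjusted p of 0.0107; the part of the region in either change was not tested.

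KLF5 was the only activating member among these 5 that rose. KLF5 (ENSG00000102554.14, chromosome 13, 73054976 to 73077542) had 470, 441, 407 and 501 counts in control and 1334, 1446, 1116 and 1236 in knockdown. All 4 knockdown libraries were above 2 times the highest control library in CPM, at 56.6, 59.2, 56.8 and 57.1 CPM against 21.5, 20, 19.3 and 21.6 CPM. The rise was 1.48 on the log2 scale, with an SE of 0.0421 (edgeR adjusted p 3.74e-19). Its 50 nearest tested genes, spread over 42.4 Mb of chromosome 13, were mixed, with 14 called higher and 23 lower and a median of -0.2. Of the 50, 46 had a smaller log2 fold change than KLF5. Over all genes tested, 79.8% had a change smaller in size than that of KLF5, so this count is not particular to the region. The next KLF gene on that chromosome, KLF12, is on the opposite strand, and its nearer end lies 609 kb beyond KLF5. KLF12 fell, as given further on.

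KLF3 (ENSG00000109787.13, chromosome 4, 38664196 to 38701042), the CtBP-binding repressor of the set, had 28.8, 27.2, 23.4 and 25.9 CPM in control and 23.3, 26.5, 22.8 and 24.5 CPM in knockdown. The groups overlapped, control replicate 3 lying near the lowest knockdown library. The log2 fold change of -0.12 (SE 0.0795) had an adjusted p of 0.0999 by edgeR, and the exact two-sided permutation p was 0.2. Without control replicate 3 the log2 fold change was -0.17 with an adjusted p of 0.00926, and without knockdown replicate 2 it was -0.16 with an adjusted p of 0.0378, both past the threshold in edgeR's test. Genes around KLF3 were mostly higher (median 0.42), and an offset for that shift gave -0.53 with an adjusted p of 4e-08 by edgeR (range over all alternatives 4e-08 to 1). KLF3 shares 266 bases, 4.22% of its exons, with KLF3-AS1 on the opposite strand, which averaged 17.75 counts, and whether the counts used strand is not given in the sources used here.

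Of the SIN3A-binding members, KLF9 fell. KLF9 (ENSG00000119138.4, chromosome 9, 70384597 to 70414624), induced in many tissues by glucocorticoids and thyroid hormone, had 50.9, 51.8, 47.4 and 52 CPM in control and 18.1, 19.1, 17.0 and 18 CPM in knockdown. The values within each group were close, and knockdown kept 35.8% of the control level. On the log2 scale it differed by -1.48, with an SE of 0.0469 (edgeR adjusted p 1.14e-18).

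KLF10 and KLF11, named TGF-beta inducible early genes for their induction by that cytokine, rose together by smaller amounts. KLF10 (ENSG00000155090.15, chromosome 8, 102648779 to 102655902) had 26.0, 28.3, 26.4 and 25.8 CPM in control and 34.8, 33.7, 32.1 and 32.6 CPM in knockdown (0.32 on the log2 scale, SE 0.0405, edgeR adjusted p 3.07e-06). KLF11 (ENSG00000172059.11, chromosome 2, 10042849 to 10054836) had 34.6, 35.4, 35.1 and 35.6 CPM in control and 47.5, 46.3, 45.9 and 48.6 CPM in knockdown (0.42 on the log2 scale, SE 0.0205, edgeR adjusted p 5.21e-09). Neither gene's groups overlapped, and the coefficient of variation of KLF11 in control, 1.24%, was the lowest of the 10 members. With the median of the 50 nearest genes as an offset, KLF10 moved to 0.73 and KLF11 to 0.27, both still past the threshold in edgeR's test. KLF11 shares 416 bases, 9.07% of its exons, with a gene on the opposite strand (AC104794.4) that averaged 2.62 counts.

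KLF13 (ENSG00000169926.11, chromosome 15, 31326855 to 31435665), a factor first studied as an activator of the chemokine gene CCL5 in T cells, had the most counts of the 10, from 3579 to 3688 in control and from 3034 to 4063 in knockdown. In CPM the control libraries were at 163.7, 166.4, 174.9 and 158.3 and the knockdown libraries at 148.3, 166.2, 154.3 and 162.0, so the groups overlapped. The log2 fold change was -0.07 (SE 0.0472, adjusted p of 0.107 by edgeR), and it was 0.012 when libraries were scaled by their totals only. It passed the threshold of edgeR's test without control replicate 4 (-0.1, adjusted p of 0.0396), without knockdown replicate 2 (-0.096, adjusted p of 0.0421) and with the regional offset (-0.15, adjusted p of 0.00217).

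**Figure D2:**
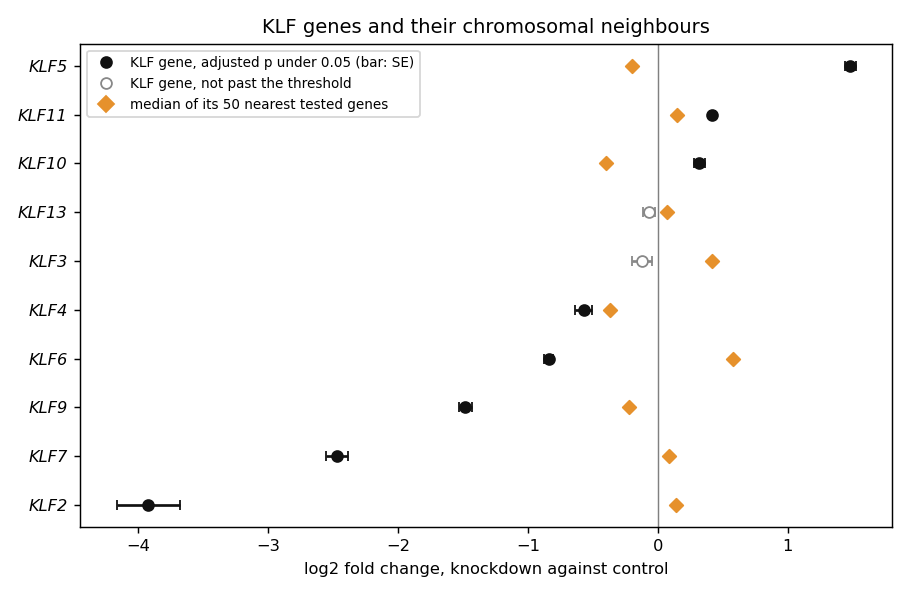
Log2 fold change of each KLF gene (circles, bars for the SE, open where the adjusted p was not under 0.05) and the median log2 fold change of its 50 nearest tested genes (diamonds), horizontal axis. KLF5 and KLF10 lie to the right of their neighbours and KLF6, KLF7 and KLF2 to the left. The sign of a member and of its neighbours' median differed for 7 of the 10. These include KLF3 and KLF13, which were not called, and medians near 0 for KLF7 (0.09) and KLF13 (0.07). The same share over all genes was not computed, so the count is a description only.

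Levels were next compared between members, which needs a scale per length: CPM divided by the kilobases of exon of each gene in GENCODE 29. If the cells use a shorter transcript than the full annotated exons, this value is too low for that gene. In control, KLF13 stood highest at 17.6 ± 0.735 CPM per kb (SD, n = 4), followed by KLF6 at 10.9 ± 0.4, KLF9 at 9.76 ± 0.412, KLF11 at 7.67 ± 0.0951 and KLF10 at 6.65 ± 0.291. KLF4 and KLF5, at 5.78 ± 0.484 and 5.29 ± 0.288 CPM per kb, overlapped in range, as did KLF3, KLF2 and KLF7 in turn at the bottom, between 3.84 and 4.18. In knockdown the order changed below KLF13, which stayed first at 16.8 ± 0.847 CPM per kb. KLF5 came second at 14.7 ± 0.303, then KLF11 at 10.3 ± 0.264 and KLF10 at 8.32 ± 0.304, with no overlap between neighbours in this order. KLF6 held rank 5 at 6.13 ± 0.157. KLF4, KLF3 and KLF9 lay between 3.49 and 3.9 CPM per kb, each overlapping the next. KLF7 and KLF2 were far below, at 0.692 ± 0.0691 and 0.256 ± 0.0722 CPM per kb.

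**Figure D3:**
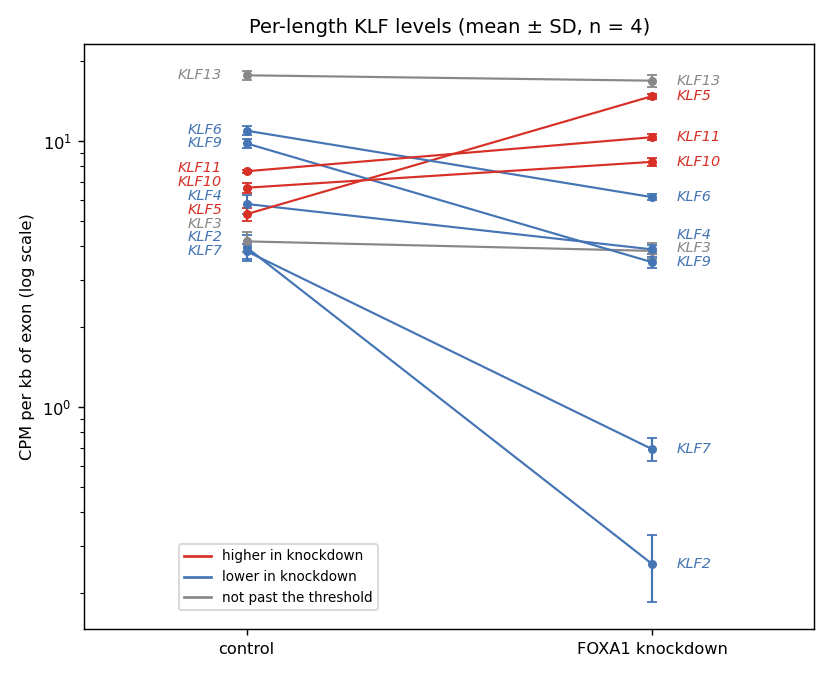
Mean level of each KLF gene in CPM per kb of exon (log axis, bars for the SD, n = 4) in control and knockdown cells. KLF5 climbs from rank 7 to rank 2 and KLF9 drops from rank 3 to rank 8, while KLF13 keeps rank 1.

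The summed per-length level of the 10 members lay between 74.3 and 77.2 CPM per kb in control and between 66.8 and 70.6 CPM per kb in knockdown, a ratio of means of 0.904. The share of KLF5 in that sum went from 6.99% ± 0.386 to 21.6% ± 0.205 (SD, n = 4 each). KLF6 went from 14.5% to 8.96%, KLF9 from 12.9% to 5.1% and KLF2 from 5.24% to 0.374%. The activating branch made up 39.4% ± 1.29 of the sum in control and 37.6% ± 0.451 in knockdown, with no overlap. The SIN3A-binding branch made up 55.1% ± 1.27 and 56.8% ± 0.404, with overlap. Inside the activating branch the leading gene was KLF6 in control, at 36.7% ± 0.779 of the branch, and KLF5 in knockdown, at 57.3% ± 0.155. These shares do not depend on how libraries are scaled against each other. They were computed after the single-gene values had been seen and are given as a description.

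**Figure D4:**
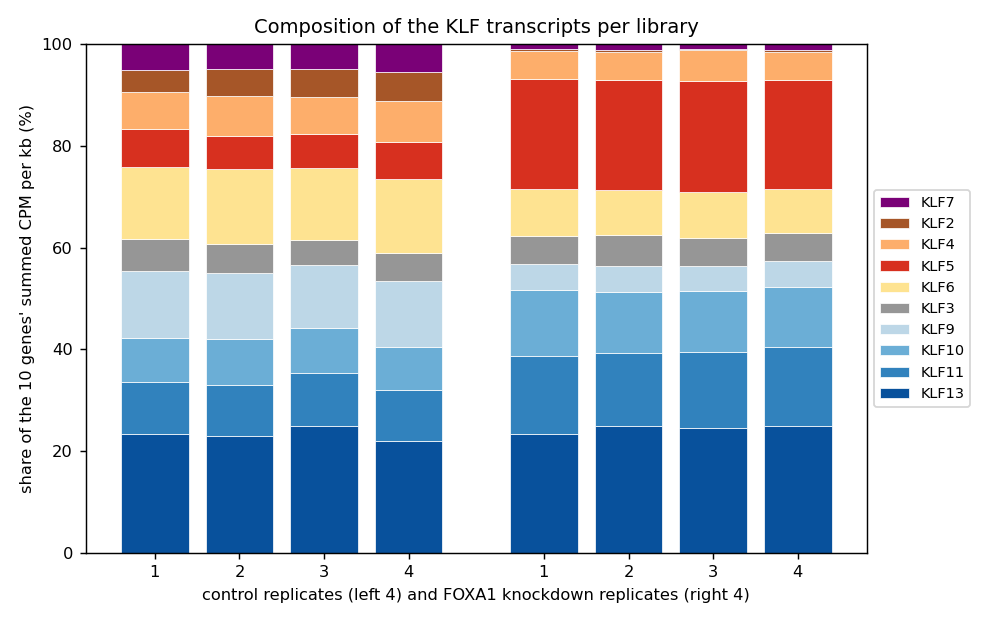
Share of each KLF gene (percent, vertical axis) in the summed CPM per kb of the 10 genes, as stacked segments with one bar per library. KLF5 takes between 6.65% and 7.42% in the control libraries and between 21.3% and 21.8% in the knockdown libraries.

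Ratios within a library gave the same exchange in another form. Per length, KLF5 stood at 0.919 ± 0.077 times KLF4 in control and at 3.78 ± 0.143 times in knockdown (SD, n = 4 each). The ranges of this ratio, 0.851 to 1.02 and 3.58 to 3.92, did not overlap. KLF11 stood at 0.787 ± 0.0328 times KLF9 in control and at 2.94 ± 0.15 times in knockdown. Both pairs were picked after their values were seen.

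The rest of the family was read from the same fit. KLF1, KLF17 and KLF18 matched no gene by symbol and so could not be analysed. KLF14 had at most 3 counts in control and at most 8 in knockdown and was not tested. Of the 4 other KLF genes tested, 2 were lower and 2 higher, with a median log2 fold change of -0.11. The lower ones, KLF8 and KLF12, are CtBP-binding repressors like KLF3. KLF8 had 31.7, 33.7, 31.4 and 36.1 CPM in control and 22.2, 26.1, 23.7 and 24.2 CPM in knockdown (-0.47 on the log2 scale, SE 0.0668, edgeR adjusted p 9.12e-08). KLF12, the neighbour of KLF5 on chromosome 13, had 10.4, 10.4, 7.49 and 8.99 CPM in control and 1.44, 1.92, 1.42 and 2.13 CPM in knockdown (-2.43 on the log2 scale, SE 0.183, edgeR adjusted p 8.18e-14). KLF5 and KLF12, 609 kb apart, thus moved in opposite directions. Their windows of 50 nearest genes span 42.4 and 43.1 Mb and so overlap by construction. The median of -0.2 that both windows gave is therefore not separate information. The higher ones, named after their values were seen, were KLF15, from 0.262 to 1.26 CPM with between 22 and 33 counts in knockdown, and KLF16, at 0.24 on the log2 scale (edgeR adjusted p 0.000683) and with overlapping groups. Of the SP factors, zinc finger proteins that bind the same GC boxes, 3 of 6 tested rose and 3 fell. SP3 went from 83.8 to 115 CPM (log2 fold change 0.45) and SP1 from 172 to 205 CPM (0.25), while SP6 had a log2 fold change of -0.59 and SP4 of -0.47. SP2, named after its value was seen, was the other lower call at -0.3. SP5 was at 0 counts in all 4 controls and at 16 to 35 in the knockdown libraries, at least 7.83-fold higher against a floor of 3 counts per library.

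Partner genes were read next. Of 10 corepressor genes, 8 were higher and 2 lower (median log2 fold change 0.36, beside 0.019 for all genes tested). Over all genes tested, 39.4% were called higher and 37.7% lower. HDAC1 and HDAC3, the histone deacetylases, went from 105 to 161 CPM and from 68.6 to 100 CPM, and SAP30, a subunit of the SIN3A complex, from 12 to 5.74 CPM (log2 fold change -1.08); NCOR1 was the other lower call at -0.14. Of 4 coactivator genes, the acetyltransferase genes EP300 (log2 fold change 0.33), KAT2B (0.39) and, named after its value was seen, KAT2A (0.25) were higher, and CREBBP was at -0.05 with an adjusted p of 0.219 by edgeR. Of 10 genes for the turnover of KLF proteins, 4 were higher and 5 lower. WWP1, a ubiquitin ligase known to act on KLF5 protein, went from 176 ± 10.5 to 110 ± 3.63 CPM (SD, n = 4 each), or -0.68 on the log2 scale, and SMURF1 was lower at -0.4. NEDD4 rose from 57.2 to 128 CPM and VHL from 49.9 to 76.3 CPM. FBXW7, whose product also marks KLF5 for degradation, was at -0.07 and did not pass the threshold.

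Genes upstream of single members were read in the same way, beside the same 39.4% higher and 37.7% lower over all genes tested. In the ERK5 and MEF2 pathway, which induces KLF2 and KLF4, 3 of 4 tested genes were lower and 0 higher (median -0.36). MEF2D went from 100 to 58.7 CPM (log2 fold change -0.77) and MAP2K5 from 16.9 to 12.6 CPM (-0.42). MEF2A, at -0.31, was the other lower call and is named after its value was seen, MAPK7 (ERK5) was at -0.07 and not called, and MEF2C had at most 9 counts. In the TGF-beta list, the pathway that induces KLF10 and KLF11, 5 of 10 genes were lower and 4 higher (median -0.53). The ligand gene TGFB3 fell from 176 ± 4.86 to 1.62 ± 0.191 CPM (SD, n = 4 each) and TGFB2 from 12.1 to 0.22 CPM. The other lower calls, named after their values were seen, were the receptor genes TGFBR1 (-1.64) and TGFBR2 (-1.04) and the SMAD inhibitor gene SKIL (-1.01). SMAD4 rose from 19.9 to 51 CPM and SMAD7 from 9.57 to 13.3 CPM. The third ligand gene, TGFB1, had at most 2 counts in control and between 14 and 25 in knockdown, at least 5.84-fold higher against the same floor, and SMAD2 was higher at 0.1; both are named after their values were seen. The list thus held ligand genes that moved in both directions. In the glucocorticoid list, set beside KLF9, 2 of 6 tested genes were higher and 2 lower. The receptor gene NR3C1 rose from 45.0 to 99.1 CPM and NR3C2 from 3.28 to 5.55 CPM, while the target gene TSC22D3 fell from 112 ± 4.9 to 0.348 ± 0.153 CPM (SD, n = 4 each) and PER1 from 20.5 to 16.4 CPM. FKBP5, also a target, was at 0.03 and was not called.

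Of 20 genes reported in the literature as targets of KLF proteins, 15 were tested, 8 were higher and 5 lower (median 0.22). PDGFA, reported for KLF5, rose from 0.837 ± 0.258 to 52.3 ± 3.13 CPM and PTGES from 77.4 ± 2.71 to 249.6 ± 7.14 CPM (SD, n = 4 each). TNFAIP2, also reported for KLF5, went the other way, from 76.4 ± 1.71 to 9.06 ± 0.931 CPM. NOS3, a KLF2 target in endothelium, fell from 10.8 to 0.799 CPM. CDKN1A, a target of KLF4 and KLF6, was lower at -2.24 and CCND1 at -1.0 on the log2 scale, both named after their values were seen. CDH1, FGFBP1, MAOB and LGALS3 did not pass the filter on low counts, and CDH1 had at most 13 counts in any library. The shares called in these lists stand against 77.1% of all genes, 39.4% higher and 37.7% lower.

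**Figure D5:**
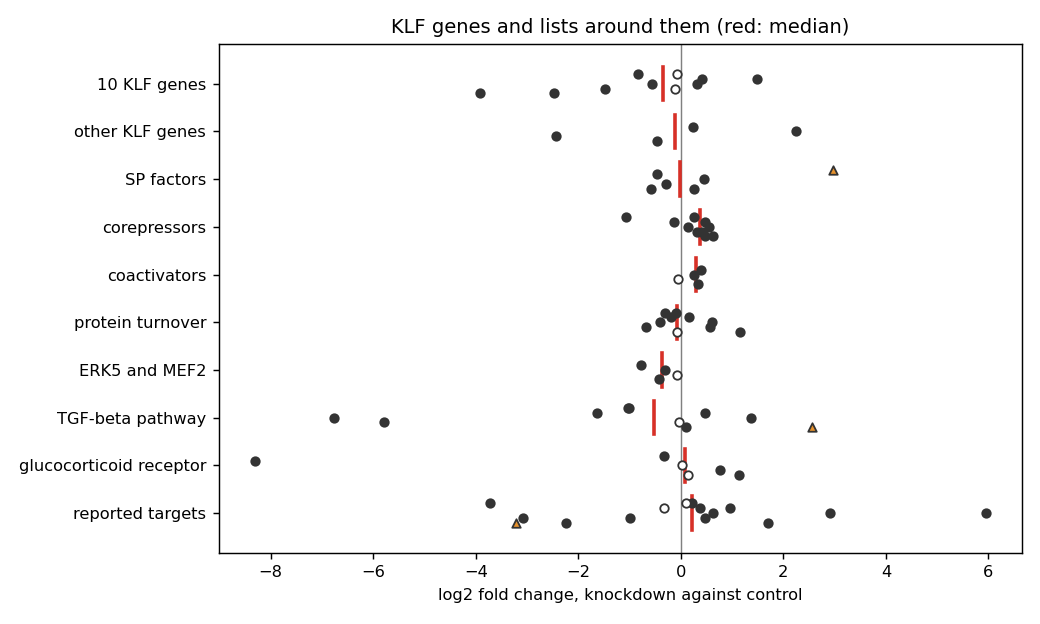
Log2 fold change (horizontal axis) of the 10 KLF genes and of the tested genes of each list (rows), filled where the adjusted p was under 0.05, open where not, and as triangles at the bound where a group had 3 or fewer counts in every library; the red line is the median of the row. The corepressors lie between -1.08 (SAP30) and 0.62 (HDAC1) with a median of 0.36, and TSC22D3 is the leftmost point at -8.3.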

How the data were processed

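The deposited table held raw read counts per gene for 8 libraries made from Trizol RNA by a standard mRNA protocol and sequenced as 101-base read pairs, per the labels' protocols. The submitters' processing notes name FastQC, Salmon 1.9, DESeq2 3.16 and hg38 without saying what each did; the counts are whole numbers and may be rounded estimates. The annotation release, and whether strand was used, are not given in the sources used here. Positions and exon lengths come from GENCODE 29 on GRCh38, matched by Ensembl identifier (29358 of 30434, 96.5%).

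Genes were kept by filterByExpr (minimum of 10 counts, total of 15), scaled by TMM and tested in edgeR 4.0.16 (R 4.3.3) with a robust quasi-likelihood fit; 14004 genes were removed. Adjusted p-values cover all genes tested, with a threshold of 0.05. Each SE was computed from replicate log2 CPM after adding 0.5 to the counts. Permutation tests used log2(CPM + 0.5) over 70 divisions of the libraries. The fit was also run on simulated counts, with 181 changed genes among 15268 tested. It recovered 175 of them with the right sign, and 19 of its 194 calls were false. Far fewer genes changed there than were called in these data, and all shared 1 dispersion. The run therefore does not give the error rate of the calls reported here. The named genes are the 10 members, FOXA1 and, from each list, up to 2 rises and 2 falls among called genes that averaged 50 or more counts and whose groups did not overlap; genes at 0 or below the filter may be added. The members and lists were chosen with earlier results of these data known. Alternatives included other scalings and filters, DESeq2 1.42.0, limma 3.58.1 (voom), a replicate block, a test against a 2-fold change, an offset by the median of the 50 nearest tested genes, and leaving out each library. The values of 1 list gene are not reported here. Shared sequence was counted over stretches of 31 bases in GENCODE 29 transcripts.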

Additional observations from a re-analysis of the deposited data

How the results depend on the processing

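The calls of KLF2, KLF5, KLF7 and KLF9 held under all 20 alternatives, and those of KLF4, KLF6, KLF10 and KLF11 under 19, the exception being the test against a 2-fold change. That test left 1 member higher and 3 lower, and 3863 genes called in all, 2034 higher and 1829 lower, because it asks for a larger change. KLF13 changed sign when libraries were scaled by their totals only, to 0.012, and KLF3 and KLF13 passed the threshold under 3 alternatives each, as given with their values. The regional offset gave 3 members higher and 7 lower. Leaving out each library in turn kept KLF2 between -4.03 and -3.75, KLF7 between -2.52 and -2.41, KLF9 between -1.51 and -1.45 and KLF5 between 1.45 and 1.5 on the log2 scale. Other scalings moved the median log2 fold change of all genes by at most 0.083. No pairing of libraries by replicate number was seen. Deviations of same-numbered libraries correlated between -0.0307 and 0.0563 over 16430 genes, and not every library correlated best with its own number. All tested genes were used, those with low counts included, so a weak pairing could be missed. With the replicate block, 3 members were higher, 5 lower and 12453 genes called, against 12675 without it. Precision is limited most for KLF2, with 6 to 15 counts in the knockdown libraries.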

Other observations

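Among 22 groups of 4 values (the 10 KLF genes and FOXA1, in control and in knockdown), 0 had a library whose gap to its nearest neighbour exceeded Dixon's critical value, where chance gives about 1.1. The KLF5 to KLF12 ratio per length, a pair picked after its values were seen, was 6.28 ± 0.847 in control and 95.9 ± 18 in knockdown (SD, n = 4 each), and 1 tested gene lies between the 2 genes on chromosome 13.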
